A study of Mus musculus with 6 samples.

Results

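Aminoacyl-tRNA synthetases are the enzymes that load each transfer RNA with its amino acid, and the genes described here encode the cytosolic and mitochondrial enzymes together with 2 scaffold proteins. The members were found by gene symbol in a deposited table of 34745 mouse genes. All 38 listed members were present: 20 cytosolic synthetase genes, 16 mitochondrial ones (symbols ending in 2) and the scaffold genes Aimp1 and Aimp2. The methionine enzyme, listed as Mars1, stood in the table as Mars. The RNA came from RAW 264.7 cells, a mouse macrophage line, grown with bisphenol AP (BPAP), a relative of bisphenol A, in 3 libraries, or with its solvent DMSO in 3 libraries. All 6 libraries share this 1 line, and BPAP dose, duration of exposure and use of poly(A) selection were not stated. The series asks how BPAP alters gene expression in macrophages, in a study of lung fibrosis.

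Cytosolic synthetases supply charged tRNAs to cytosolic ribosomes, while a separate set of nuclear-encoded enzymes is imported to charge the tRNAs of the mitochondrial genome. Gars and Kars each encode both the cytosolic and the mitochondrial enzyme, Eprs encodes a fused enzyme for glutamate and proline, and Farsa and Farsb encode the subunits of the cytosolic phenylalanine enzyme. Several cytosolic enzymes sit with Aimp1 and Aimp2 in a large multisynthetase complex. In mammalian cells uncharged tRNA activates the kinase GCN2, which favours translation of the transcription factor ATF4, and many cytosolic synthetase genes are known ATF4 targets through C/EBP-ATF response elements.

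Total counts ranged from 12056332 to 12427563 in the BPAP libraries and from 11084705 to 13806559 in the DMSO libraries. The labels do not say whether replicates were separate cultures, so every p-value reflects library-to-library spread that could be purely technical. Of 10 macrophage markers, Mertk alone had no count in any library. The summed level of this list was 5072 to 5551 CPM (counts scaled to TMM-adjusted library size) in BPAP and 4265 to 4856 CPM in DMSO, and BPAP had 6 of its 9 tested genes higher and 1 lower, where 16.2% and 15.5% of all tested genes were. After removal of the smooth trend of each library with exon length and GC content, 2 of the 9, Cd14 and Fcgr1, were higher and 1, Csf1r, was lower. Summed markers of fibroblasts, epithelial cells and lymphocytes stayed at or below 0.492 CPM in BPAP and 1.06 CPM in DMSO, with Dcn, Epcam and Cd3e at 0 counts. In bulk RNA, fewer cells of a state and less RNA per cell cannot be told apart.

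In BPAP-treated cells, 9 of 20 cytosolic synthetase genes rose relative to DMSO-treated cells and 0 fell, while 0 of 16 mitochondrial synthetase genes were higher and 2 were lower. The cytosolic rises were moderate, from 1.22-fold for Qars to 1.65-fold for Sars. Tars2 and Vars2, the mitochondrial enzymes for threonine and valine, were 1.41-fold and 1.28-fold lower. Of the scaffold genes, Aimp1 was 1.35-fold higher and Aimp2 did not pass. The call rests on the edgeR quasi-likelihood test, with p-values adjusted by Benjamini-Hochberg over every gene tested and a threshold of 0.05. Of all 11711 genes tested, 16.2% were higher and 15.5% lower, against 45.0% and 0% of the cytosolic synthetase genes and 0% and 12.5% of the mitochondrial ones. All 38 members passed the filter on low counts. The median log2 fold change, BPAP over DMSO, was 0.24 for cytosolic genes, -0.06 for mitochondrial genes and 0.02 for all tested genes. The difference between the compartments is given as a description and was not tested over the lists.

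**Figure D1:**
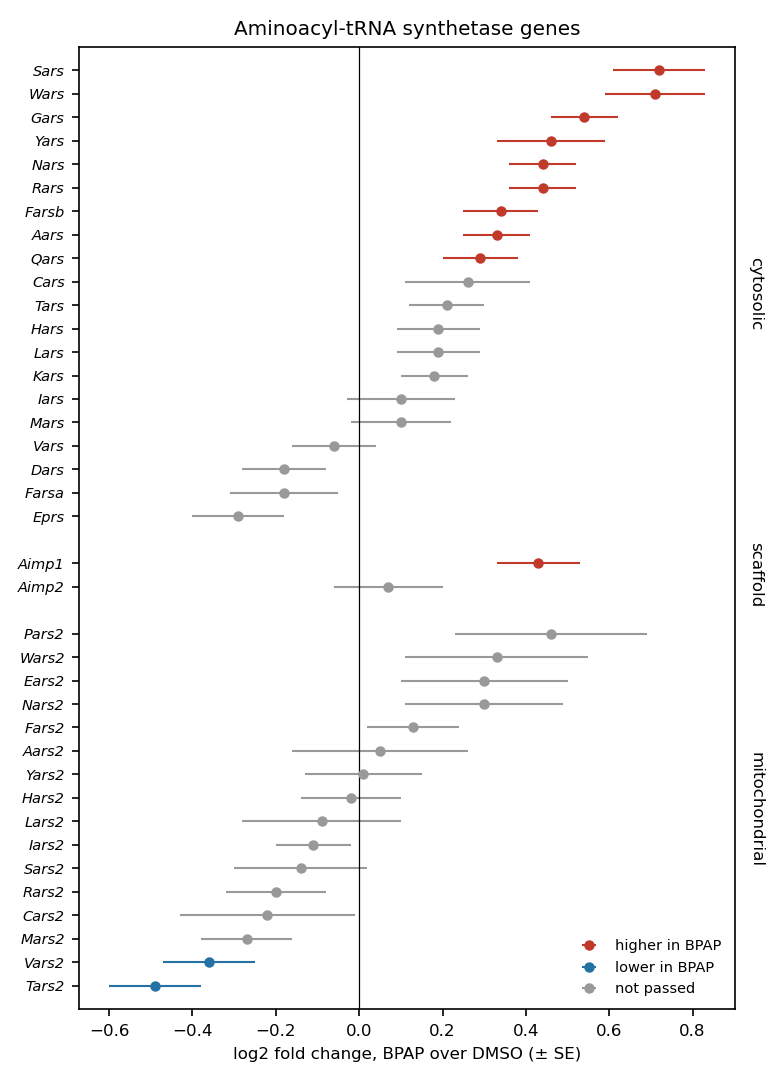
Log2 fold change of each member, BPAP over DMSO (points, with standard errors as bars), in the order cytosolic, scaffold and mitochondrial from top to bottom. Red points were higher and blue points lower at the 0.05 threshold of the edgeR adjusted p. The 9 cytosolic calls all lie right of 0, and the 2 mitochondrial calls lie left of it.

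The core of the C/EBP-ATF response element was looked for after the cytosolic calls were seen, because ATF4 is known to act through it. Whether ATF4 had a part in the changes of these genes was not tested. RefSeq promoter windows (GRCm38.p6, from 250 bases before the start to 50 bases after its first base) were matched for 29 of the 38 members: 13 cytosolic, 14 mitochondrial and 2 scaffold genes. The windows were searched on both strands for TGATGNAA, whose reverse complement is TTNCATCA. It was present in the windows of 5 of the 13 cytosolic genes, 0 of the 14 mitochondrial genes and 0 of the 2 scaffold genes. Of all 27025 genes with a window, 4.51% held it, and of the tested genes matched by symbol, 2.68%. These genes were Aars, Gars, Iars, Tars and Yars. A match is a description of the letters and not a measured binding site. For each of these genes 1 match is shown 5′ to 3′ in the direction of the gene with 11 bases on each side, with the element in capitals.
Aars, chr8:111033840-111033869, plus strand: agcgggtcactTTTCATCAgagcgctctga
Gars, chr6:55037960-55037989, plus strand: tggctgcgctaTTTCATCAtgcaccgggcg
Yars, chr4:129189895-129189924, plus strand: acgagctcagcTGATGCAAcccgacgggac
Iars, chr13:49682126-49682155, plus strand: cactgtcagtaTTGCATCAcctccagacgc
Tars, chr15:11399655-11399684, minus strand: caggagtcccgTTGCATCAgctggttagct
The element shown begins 9 bases after the start in Aars, 30 bases before it in Gars, 15 bases before it in Tars, 7 bases after it in Iars and 3 bases after it in Yars. A further match in Aars, not shown, begins 112 bases before the start. Aars, Gars and Yars were higher in BPAP, and Iars and Tars did not pass, at log2 fold changes of 0.10 and 0.21. Of the 9 cytosolic genes called higher, 6 had a window, and 3 of these, Farsb, Qars and Sars, held no match. Nars, Rars and Wars were not searched, nor were Cars, Hars, Lars, Vars, Hars2 and Pars2.

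Sars, which encodes the serine enzyme (ENSMUSG00000068739, chromosome 3, 108424865 to 108445209, GRCm38, minus strand), showed the largest change of all members. It had 849, 1019 and 833 CPM in the BPAP libraries, against 492, 584 and 564 CPM in the DMSO libraries. Every BPAP library lay above every DMSO library, and BPAP 2 was the highest. The log2 fold change was 0.72 (SE 0.11, edgeR adjusted p = 0.00153). Wars, which encodes the tryptophan enzyme (ENSMUSG00000021266, chromosome 12, 108860030 to 108894174, minus strand), followed with 117, 130.1 and 105 CPM in BPAP, against 62.0, 77.5 and 75.2 CPM in DMSO. The groups did not overlap, and DMSO 1 was the lowest library. Its log2 fold change was 0.71 (SE 0.12, edgeR adjusted p = 0.00211). Gars, the glycine enzyme of both compartments (ENSMUSG00000029777, chromosome 6, 55038007 to 55079500, plus strand), had 348, 385 and 363 CPM in BPAP, against 246, 253 and 255 CPM in DMSO. The DMSO libraries were close together and all lay below the BPAP libraries, with a log2 fold change of 0.54 (SE 0.08, edgeR adjusted p = 0.00154).

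Nars and Rars, the asparagine and arginine enzymes, both rose 1.36-fold. Nars had 470.0, 490.5 and 501.5 CPM in BPAP, against 337, 374 and 367 CPM in DMSO. It averaged 487 ± 16.0 CPM in BPAP and 359 ± 19.7 CPM in DMSO (SD, n = 3 each). Rars (ENSMUSG00000018848, chromosome 11, 35808381 to 35834506, minus strand) had 243, 226 and 244 CPM in BPAP, against 185, 168.5 and 173 CPM in DMSO. It averaged 238 ± 10.3 CPM in BPAP and 175 ± 8.3 CPM in DMSO. In both genes the lowest BPAP library was above the highest DMSO library, and the edgeR adjusted p was 0.00391 and 0.00395. The calls of Sars, Wars, Gars, Nars and Rars were kept in all 16 alternative settings. For these 5 genes the log2 fold change ranged over those settings from 0.38 for Nars to 0.79 for Wars.

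Aars, the alanine enzyme (ENSMUSG00000031960, chromosome 8, 111033144 to 111057664, plus strand), had 586, 614 and 564 CPM in BPAP, against 467, 492 and 449 CPM in DMSO, a 1.25-fold rise (edgeR adjusted p = 0.0138). The call was lost without DMSO 3 (edgeR adjusted p = 0.0595), the highest of its adjusted p-values over the alternatives, which began at 0.00197. Aars shares 14.3% of its exon bases with Exosc6 on the same strand, so its counts are uncertain to that extent. Yars, the tyrosine enzyme, had 153, 198 and 171 CPM in BPAP, against 106, 135 and 138 CPM in DMSO. It rose 1.38-fold (edgeR adjusted p = 0.0198), and the call was lost without DMSO 1 (edgeR adjusted p = 0.0774), against a lowest value of 0.00393 over the alternatives. Farsb, the beta subunit of the phenylalanine enzyme, had 89.7, 105 and 95.2 CPM in BPAP, against 79.9, 75.0 and 73.6 CPM in DMSO. It rose 1.27-fold (edgeR adjusted p = 0.0191), and the call was lost without DMSO 2 (0.0699) or DMSO 3 (0.0698) and after removal of the length and GC trend (0.139), within a range of 0.0102 to 0.145 over the alternatives. That trend is each library's smooth dependence of counts on a gene's exon length and GC content, described further on.

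Its partner Farsa, the alpha subunit of the same enzyme, had 47.0, 52.0 and 44.0 CPM in BPAP, against 64.4, 52.1 and 45.6 CPM in DMSO, so that the groups overlapped. The log2 fold change of Farsa was -0.18 (SE 0.13, edgeR adjusted p = 0.324), against 0.34 (SE 0.09) for Farsb. Qars, the glutamine enzyme, had 201, 243 and 220.2 CPM in BPAP, against 174, 179 and 189 CPM in DMSO. It was the smallest rise called (1.22-fold, edgeR adjusted p = 0.0357), and the call was lost without any 1 library other than BPAP 1, with an edgeR adjusted p of 0.0656 without BPAP 2, 0.0728 without BPAP 3, 0.12 without DMSO 1, 0.106 without DMSO 2 and 0.0614 without DMSO 3. It was also lost in both limma fits of the FPKM values (adjusted p = 0.079 and 0.0795).

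**Figure D2:**
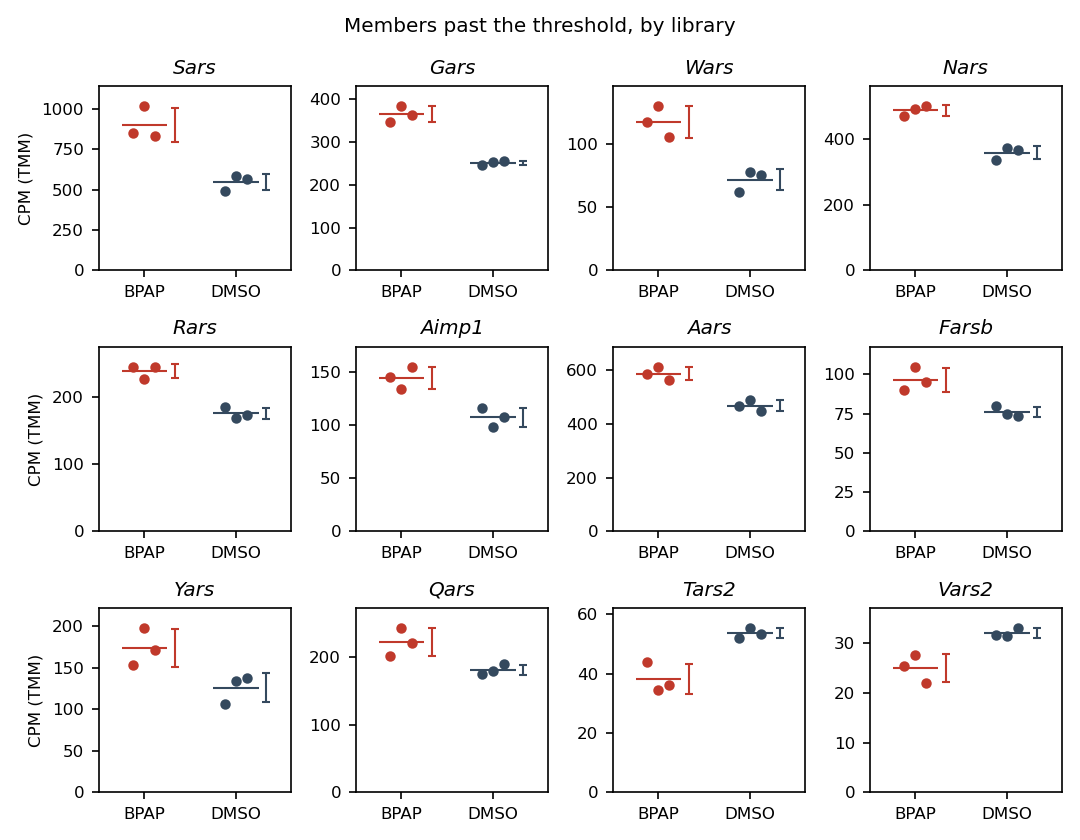
TMM-normalised CPM of the 12 members that passed, by library (points), with the group mean (horizontal line) and SD (bar at the right of each group), BPAP left of DMSO. BPAP and DMSO points do not overlap in any of the 12 panels, and Tars2 and Vars2 lie lower in BPAP.

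The other 11 cytosolic genes did not pass. Their log2 fold changes lay between -0.29 for Eprs and 0.26 for Cars, and 7 of the 11 were positive. Eprs is the most highly counted member, with 8599 to 11661 counts in the BPAP libraries and 11347 to 14951 counts in the DMSO libraries. It had 910, 715 and 956 CPM in BPAP, against 1041, 1053 and 1052 CPM in DMSO. All BPAP libraries lay below the DMSO libraries, which were almost equal, and BPAP 2 lay far below the other two. The log2 fold change was -0.29 (SE 0.11, edgeR adjusted p = 0.0702), and Eprs passed without BPAP 3 (edgeR adjusted p = 0.0473), with DESeq2 (0.0485) and with no filter on low counts (0.0453). After removal of the length and GC trend it was 0.14 (edgeR adjusted p = 0.232), so the direction of Eprs turned. Over the alternatives its adjusted p ranged from 0.0453 to 0.254. Cars, the cysteine enzyme, and Iars, the isoleucine enzyme, each had 1 high library, BPAP 2, at 194 CPM for Cars against 131 and 132 CPM in the other BPAP libraries, and at 269 CPM for Iars against 196 and 198 CPM.

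BPAP 2 stood apart among the cytosolic members more widely. It was the highest BPAP library in 14 of the 20 cytosolic genes and in 38.4% of all tested genes. The median cytosolic log2 difference from the DMSO mean was 0.38 in BPAP 2, 0.19 in BPAP 1 and 0.22 in BPAP 3. Without BPAP 2, 8 cytosolic genes were higher and the median log2 fold change was 0.20. DMSO 1 was the lowest DMSO library in 14 of the 20 cytosolic genes, against 37.8% of all tested genes. Without DMSO 1, 7 cytosolic genes were higher with a median of 0.18, against 10.5% of all tested genes higher. The summed level of the 20 cytosolic genes was 5472, 5846 and 5651 CPM in BPAP and 4666, 5013 and 4849 CPM in DMSO. The part of BPAP 2 and DMSO 1 in single genes beyond these values was not tested.

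The groups failed to overlap in more genes than were called. All BPAP values lay above all DMSO values in 13 of 20 cytosolic genes and 0 of 16 mitochondrial genes, and in 25.2% of all tested genes. All BPAP values lay below all DMSO values in 1 cytosolic gene, Eprs, in 3 mitochondrial genes, and in 23.8% of all tested genes. The 4 cytosolic genes that lay wholly above and were not called were Hars, Kars, Lars and Tars, for histidine, lysine, leucine and threonine, with log2 fold changes of 0.18 to 0.21. Hars shares 195 exon bases with Hars2 on the opposite strand. Of these 4, Tars had 139, 142 and 140.2 CPM in BPAP, against 110.5, 131 and 122.5 CPM in DMSO. Tars passed once the length and GC trend was removed (log2 fold change 0.27, edgeR adjusted p = 0.0403), with a range of 0.0304 to 0.303 over the alternatives.

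The cytosolic genes can be split by membership of the multisynthetase complex. Of all tested genes, 16.2% were higher. Of the 12 synthetase genes whose enzymes work outside the complex, 7 were higher and the median log2 fold change was 0.33. Of the 8 in the complex (Dars, Eprs, Iars, Kars, Lars, Mars, Qars and Rars), 2 were higher, Qars and Rars, with a median of 0.14, which was 0.07 without BPAP 2. The difference between these lists was not tested. Without any 1 library other than BPAP 1, 1 gene of the complex was higher, while 5 to 7 of those outside it were higher without 1 library. Of the scaffold genes, Aimp1 (ENSMUSG00000028029, chromosome 3, 132660499 to 132684370, minus strand) had 145, 134 and 155 CPM in BPAP, against 116, 98.6 and 108 CPM in DMSO. The groups did not overlap, and the log2 fold change was 0.43 (SE 0.10, edgeR adjusted p = 0.00829). Aimp2 had 18.8, 25.5 and 19.8 CPM in BPAP, against 19.9, 20.3 and 20.9 CPM in DMSO, with BPAP 2 again the high library and the groups overlapping. Aimp2 shares 29.4% of its exon bases with Eif2ak1 on the opposite strand, and the strand setting of the counts is not given in the sources used here, so its value is uncertain. The division of the cytosolic enzymes by catalytic fold showed 4 of 9 class I genes and 5 of 10 class II genes higher, with medians of 0.26 and 0.27. The share of all tested genes was again 16.2%.

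The third known scaffold of the complex, Eef1e1, which is not among the 38 members, rose 1.53-fold. It had 44.3, 53.9 and 51.7 CPM in BPAP, against 28.9, 32.4 and 36.5 CPM in DMSO (edgeR adjusted p = 0.00484).

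Mitochondrial synthetase genes were counted far less than cytosolic ones. On the scale of CPM per kilobase of merged exons, the median level was 3.33 for mitochondrial genes and 34.5 for cytosolic genes in DMSO. The highest mitochondrial level was that of Iars2 at 19.9 and the lowest that of Cars2 at 0.606, and the cytosolic levels lay between 11.9 for Farsa and 106 for Sars. Iars2 shares 22.9% of its exon bases with Rab3gap2 on the opposite strand, which had more counts, so its level is uncertain. Mean counts per library ran from 44 for Pars2 to 2118 for Iars2. The standard errors of the log2 fold changes were accordingly wider, with a median of 0.15 in mitochondrial genes and 0.10 in cytosolic genes and a highest value of 0.23, that of Pars2.

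Tars2, the mitochondrial threonine enzyme (ENSMUSG00000028107, chromosome 3, 95739976 to 95760206, minus strand), had 44.0, 34.6 and 36.1 CPM in BPAP, against 52.2, 55.5 and 53.5 CPM in DMSO. All BPAP libraries lay below all DMSO libraries. The log2 fold change was -0.49 (SE 0.11, edgeR adjusted p = 0.00903), and the call was kept in all 16 alternatives (adjusted p 0.00146 to 0.0383). Vars2, the mitochondrial valine enzyme (ENSMUSG00000038838, chromosome 17, 35655634 to 35667592, minus strand), had 25.4, 27.7 and 22.0 CPM in BPAP, against 31.6, 31.4 and 33.1 CPM in DMSO. The groups did not overlap, with a log2 fold change of -0.36 (SE 0.11, edgeR adjusted p = 0.0368). The call of Vars2 was lost without any 1 library other than BPAP 2 (edgeR adjusted p 0.0642 to 0.12).

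The other 14 mitochondrial genes did not pass, and 7 of them had positive log2 fold changes. The highest was 0.46 (SE 0.23, edgeR adjusted p = 0.153) for Pars2, the proline enzyme. Wars2, Ears2 and Nars2 followed at 0.33 (SE 0.22), 0.30 (SE 0.20) and 0.30 (SE 0.19). The cytosolic gene Qars passed at 0.29 (SE 0.09), so a mitochondrial gene that did not pass may have an estimate as large as a called one. Pars2 had only 47, 40 and 64 counts in the BPAP libraries and 30, 35 and 49 in the DMSO libraries. The lowest was -0.27 (SE 0.11, edgeR adjusted p = 0.0967) for Mars2, the methionine enzyme. Mars2 had 33.5, 29.2 and 31.3 CPM in BPAP, against 33.2, 38.9 and 41.0 CPM in DMSO, and the groups overlapped at DMSO 1. It passed without DMSO 1 (log2 fold change -0.37, edgeR adjusted p = 0.0453, against at most 0.283 over the alternatives). Rars2 had 11.9, 11.4 and 12 CPM in BPAP, against 13.8, 14.1 and 12.9 CPM in DMSO, and was the third mitochondrial gene with every BPAP library below DMSO (log2 fold change -0.20, edgeR adjusted p = 0.233). Lars2 varied widely within BPAP, at 36.9, 24.9 and 21.2 CPM, against 27.0, 31.9 and 29.7 CPM in DMSO.

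Comparing enzymes for the same amino acid within a library removes any effect of library scaling. In 14 of 17 such pairs the ratio of the cytosolic to the mitochondrial gene was higher in BPAP than in DMSO on average, with a median difference of 0.30 on the log2 scale. Every pair shares its libraries, and Eprs and Fars2 enter 2 pairs each. Sars had 74.0, 117 and 84.7 times the CPM of Sars2 in the BPAP libraries, against 45.4, 46.7 and 57.6 times in the DMSO libraries. This was the widest difference, 0.86 on the log2 scale. Tars had 3.16, 4.10 and 3.89 times the CPM of Tars2 in BPAP, against 2.12, 2.36 and 2.29 times in DMSO. Rars had 20.5, 19.8 and 20.3 times the CPM of Rars2 in BPAP, against 13.4, 12 and 13.4 times in DMSO. In 9 of the 17 pairs the ratios of the groups did not overlap, 7 of them higher in BPAP and 2, both with Eprs, lower. Of all tested genes taken singly, 25.2% lay wholly above and 23.8% wholly below in BPAP. The share over other pairs of genes was not computed. The 2-sided exact permutation p was 0.1 for each of the 9, the smallest that 3 against 3 libraries allows, and 0.189 after Benjamini-Hochberg adjustment over the 17 pairs. The pairs in which the ratio was lower in BPAP were Farsa with Fars2 and Eprs with Ears2 and with Pars2. Eprs had 139.8, 98.8 and 131 times the CPM of Ears2 in BPAP, against 214, 214 and 145 times in DMSO. A ratio within a library keeps the trend with exon length described next. With that trend removed, a setting chosen after seeing the data, the difference of the fitted log2 fold changes was positive in 12 of 17 pairs, with a median of 0.12 against 0.29 with the trend left in. Mars with Mars2 turned to -0.31 and Nars with Nars2 to -0.07, and the pairs of Eprs were -0.13 with Ears2 and -0.15 with Pars2.

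**Figure D3:**
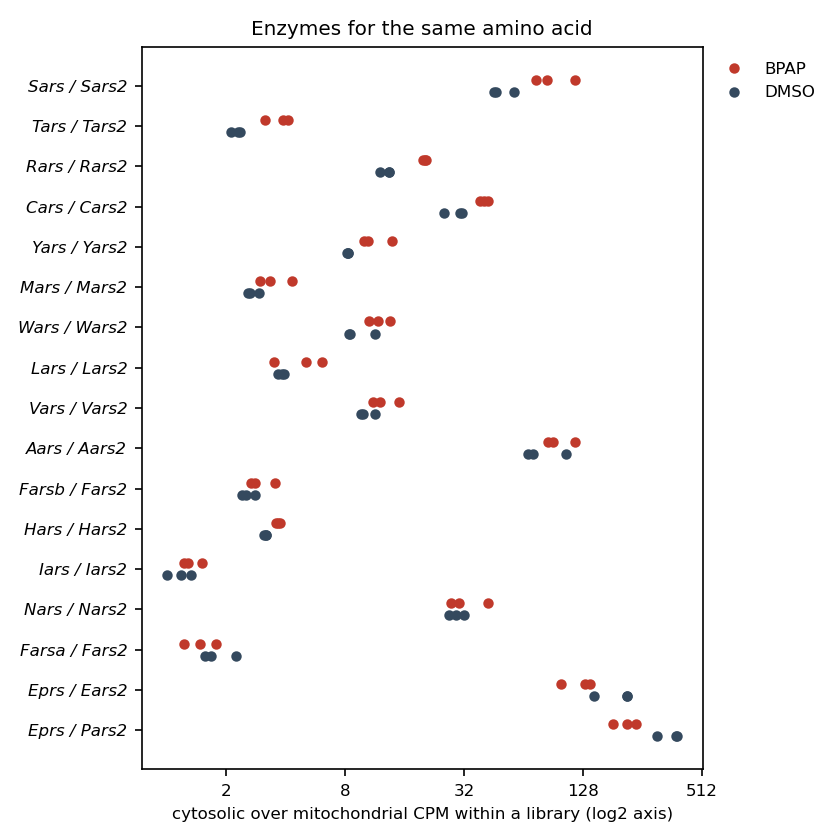
Ratio of the CPM of the cytosolic gene to that of the mitochondrial gene for the same amino acid, in each library (points, BPAP above DMSO in each row, log2 axis), in order of the difference between groups. In 14 of 17 pairs the mean ratio was higher in BPAP, and the pairs with Eprs at the bottom show lower ratios.

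Log2 fold changes were lower in longer genes over the whole table. Their Spearman correlation with merged exon length was -0.40 over the tested genes, which are not independent replicates, and -0.26 over the 38 members. The median merged exon length was 4840 bases for cytosolic genes and 5603 for mitochondrial genes, against 4298 for all tested genes. The 9 cytosolic genes called higher ran from 2620 bases for Farsb to 9282 for Aars. After the smooth trend of each library with exon length and GC content was removed, 9 cytosolic genes were higher and 0 lower, of which 8 were among the 9 called without it, Farsb being replaced by Tars. In that fit 11.8% of all tested genes were higher and 10.9% lower. The medians were 0.25 for cytosolic genes and 0.04 for mitochondrial genes, so that the mitochondrial median changed sign, while Tars2 and Vars2 were still lower. The sign of the log2 fold change turned in 8 members that were not called in either fit. The widest shift was that of Mars2, with merged exons of 11294 bases, at -0.27 before and 0.27 after (edgeR adjusted p = 0.163).

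**Figure D4:**
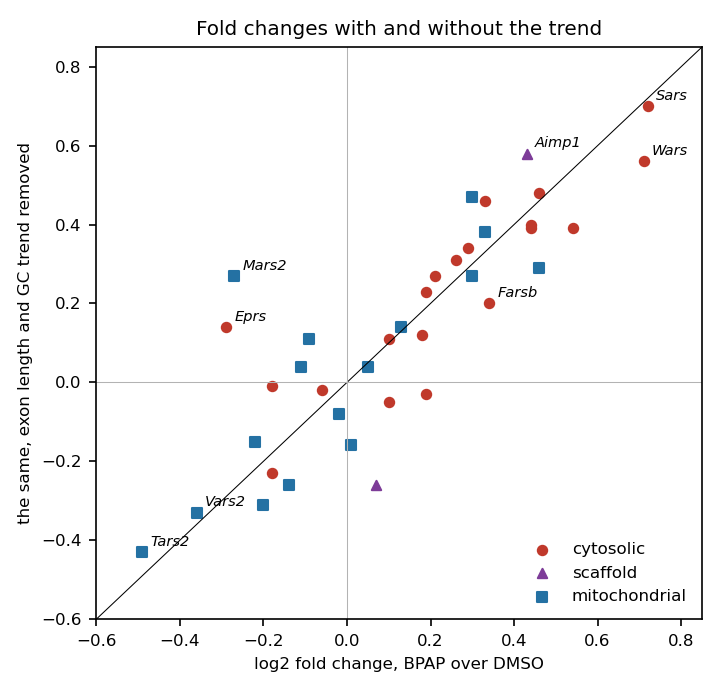
Log2 fold change, BPAP over DMSO, of the 38 members (horizontal axis) against the same value after removal of the length and GC trend (vertical axis), with colours and shapes for cytosolic, scaffold and mitochondrial genes. Points on the diagonal line are equal in both. Eprs and Mars2, both with long exons, move from below 0 to above 0, and Sars stays at 0.72 and 0.70.

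Several genes that handle peptidyl-tRNA and mischarged tRNA were also higher in BPAP. In the list of proofreading, peptidyl-tRNA and selenocysteine genes 4 of 10 were higher and 0 lower, against 16.2% and 15.5% of all tested genes, and the median log2 fold change was 0.40. After removal of the length and GC trend 3 of the 10 were higher, against 11.8% of all tested genes. Ptrh2, which encodes a peptidyl-tRNA hydrolase, had 27.0, 29.9 and 22.5 CPM in BPAP, against 13.4, 12.1 and 12.9 CPM in DMSO, a 2.07-fold rise (edgeR adjusted p = 0.000783). Prorsd1, whose product resembles a prolyl-tRNA editing domain, rose 1.72-fold (edgeR adjusted p = 0.00278). Sephs2, which encodes a selenophosphate synthetase, rose 1.43-fold (edgeR adjusted p = 0.0129), but its call was lost without DMSO 1 (0.0549) and after removal of the length and GC trend (0.115). Without DMSO 1, 2 genes of this list were higher, against 10.5% of all tested genes. In the small list with the mitochondrial amidotransferase that makes glutaminyl-tRNA, 3 of 3 subunit genes, Gatb, Gatc and Qrsl1, did not pass. Mtfmt, which formylates the initiator methionyl-tRNA of mitochondria, had 22.3, 25.4 and 21.9 CPM in BPAP, against 32.2, 29.0 and 34.8 CPM in DMSO. It fell (log2 fold change -0.47, edgeR adjusted p = 0.0133), a call lost without DMSO 3 (0.0571).

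Of 31 tested genes of tRNA maturation and export, 5 were higher and 2 lower, a share near that of all tested genes for higher calls (16.2%) and under it for lower ones (15.5%), with a median of 0.23. The most significant by adjusted p were Ssb, encoding the La protein that binds new tRNA ends, Rtcb, encoding the tRNA ligase, Thg1l and Rpp14. Ssb was lower, at 128.5 ± 15.3 CPM in BPAP and 189.9 ± 19.0 CPM in DMSO (SD, n = 3 each, edgeR adjusted p = 0.00509). Rtcb rose 1.33-fold (edgeR adjusted p = 0.00903), Thg1l 1.48-fold (0.0115) and Rpp14 1.40-fold (0.0201), and Rtcb and Rpp14 lost their calls after removal of that trend (0.0812 and 0.0722). In that fit 2 genes of the list were higher, Thg1l and Xpot, and 1 was lower, Ssb, against 11.8% and 10.9% of all tested genes. Xpot, which encodes the tRNA exporter, was not called with the trend left in and was singled out after its values were seen. Without BPAP 3 or without DMSO 1, 2 genes of this list were higher, against 13.6% and 10.5% of all tested genes. Without DMSO 2 or DMSO 3, 3 were higher, against 10.8% and 11.3%.

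Atf4, which encodes the transcription factor named above, had 612.2, 669.9 and 659.0 CPM in BPAP, against 327.3, 335.5 and 326.5 CPM in DMSO, a log2 fold change of 0.97 (edgeR adjusted p = 0.000176). In the list of the eIF2 kinases, ATF4 and its partners, 6 of 13 genes were higher and 3 lower, against 16.2% and 15.5% of all tested genes. After removal of the length and GC trend 7 were higher and 1 lower, against 11.8% and 10.9% of all tested genes. Eif2ak4, which encodes the uncharged-tRNA sensor GCN2, had 80.9, 71.0 and 82.4 CPM in BPAP, against 121, 119 and 119 CPM in DMSO. Its log2 fold change was -0.61 (SE 0.09, edgeR adjusted p = 0.00147), and -0.53 after removal of the trend (0.00316). Any part of ATF4 or GCN2 in the changes of the synthetase genes was not tested.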

How the data were processed

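RNA sequencing counts of 3 BPAP and 3 DMSO libraries of RAW 264.7 cells were analysed. The authors deposited whole-number counts and FPKM values per gene and library, per the file headers. Per the submitters' processing notes HISAT2 2.0.4, StringTie 1.3.3b and edgeR were used with GRCm38. How reads shared by several genes were assigned, the strand setting and the annotation release were not stated. Groups and replicate numbers came from sample titles, which name the DMSO libraries as Control.

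All 34745 genes entered edgeR 4.0.16 (R 4.3.3): default expression filter, TMM scaling, robust quasi-likelihood test with treatment as the only term, Benjamini-Hochberg adjustment over the 11711 genes left, threshold 0.05. Fold changes are BPAP over DMSO, P-values 2-sided and standard errors derived from the F statistic. The common biological coefficient of variation was 0.127. The edgeR fit, DESeq2, limma-voom, an FPKM fit, the replicate block and the trend removal were also run on simulated counts. The other alternatives were not, and no result of the simulation is given here. Exon lengths, GC content and overlaps came from GENCODE M21. Each library's trend was a lowess curve (span 0.3) with log2 exon length, then GC content, for 11665 genes.

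Alternatives were other scalings, no filter, DESeq2 1.42.0, limma 3.58.1 (voom, or log2 of the deposited FPKM plus 1 or 0.1, mean FPKM at least 1), a replicate block, the trend removed, and each library left out. A floor of 3 counts was 0.275 CPM or less in every library and covers counting error only. No 2 libraries of the same group agreed within sampling noise (lowest chi-square per degree of freedom 6.64).

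Members and gene lists were chosen with earlier results of these data known. Values in every library were given for the 8 cytosolic members with the smallest adjusted p, mitochondrial members that passed, the largest falls, the scaffolds and members with unstable calls; others were named after their values were seen. Related lists were limited to 4 named genes each, plus Atf4 and Eef1e1. Some items that these rules would name are not reported here.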

Additional observations from a re-analysis of the deposited data

How the results depend on the processing

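The count of cytosolic genes called higher (9) was 6 to 9 without 1 library and 8 in both FPKM fits. In the FPKM fits 15.8% and 15.6% of all tested genes were higher. That of cytosolic genes called lower (0) was 1 with no filter on low counts, with DESeq2 and with the replicate block, each time Eprs, and 0 to 1 without 1 library. The mitochondrial count lower (2) was 1 to 2 without 1 library and 1 with the replicate block and the trend removed together, where 1 gene, Nars2, was higher. In that last fit 12.9% of all tested genes were higher and 12.1% lower. The mitochondrial median log2 fold change (-0.06) was -0.16 on log2(FPKM + 0.1), 0.04 after removal of the length and GC trend, with or without the replicate block, and -0.14 to -0.02 without 1 library. The cytosolic median ranged from 0.18 to 0.28 without 1 library. Over all genes, 1901 of 11711 were higher, and 1244 to 1654 without 1 library, the lowest without DMSO 1. The cause of these shifts was not tested. No called member changed sign in any of the 16 alternatives. Same-numbered libraries correlated at 0.101, 0.054 and 0.01 in their deviations from the group means, and differently numbered ones at -0.086 to 0.045. With so few libraries per group, these values do not settle whether the numbers pair the libraries. In the fit with the replicate block 9 cytosolic genes were higher and 2 mitochondrial genes lower, against 18.4% and 17.8% of all tested genes. The genes of tRNA maturation called higher (5) numbered 8 with the block and 2 to 6 without 1 library. Ears2, Pars2 and Wars2 had a mean FPKM under 1 and have no value in the FPKM fits. The mitochondrial median of those fits leaves them out, so it covers fewer genes than the main median. Their log2 fold changes in the main fit were 0.30, 0.46 and 0.33. Mean counts per library were as low as 44 in mitochondrial genes and 626 in cytosolic genes.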
